A study of Mus musculus with 4 samples.

Results

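The collagen genes of the testis matrix were taken as every row of the gene table whose identifier maps to a symbol made of Col, a number, the letter a and a number, with nothing after it. This gave 44 of the 54232 genes in the table. All 44 passed the filter on low counts and were among the 25076 genes tested. They comprised 11 fibrillar collagen genes, 6 type IV genes of basement membranes and 27 other collagen genes. RNA was sequenced from whole testes of mice at postnatal day 17, from the strain labelled B6D2F1 inbred. The control libraries carry the genotype label Dis3 WT and the others Dis3 KO, and the series design names the latter as a conditional knockout (cKO). Each group held 2 libraries, numbered 1 and 2. Which promoter drove the deletion, and in which cells, is not given in the sources used here, nor is whether animals were pooled. The labels do not state that libraries of a group came from separate animals, so a p-value here reflects only how far these libraries spread, which may be technical.

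Collagens are secreted or membrane proteins whose chains wind around each other into a triple helix. Fibrillar collagens such as types I, III and V assemble into the fibres of the interstitium between the seminiferous tubules and of the tubule wall. Type IV collagen forms the sheet-like network of basement membranes, and in the testis it underlies the Sertoli cells and germ cells and surrounds peritubular myoid cells and vessels. The matrix is made chiefly by somatic cells of the testis, among them fibroblasts, peritubular myoid cells and Sertoli cells.

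Dis3, the targeted gene, encodes a ribonuclease of the RNA exosome and was read at 80.2 and 80.7 CPM in WT replicates 1 and 2 and 39.6 and 42.9 CPM in KO replicates 1 and 2 (CPM, counts scaled by TMM library size). The gene table held 31031920 and 40329170 reads in WT and 17663416 and 19255782 reads in KO. Germ cell markers were lower in KO, with 13 of 15 tested pachytene spermatocyte genes, 14 of 16 genes of early meiotic prophase and 8 of 14 spermatogonial genes called lower. One pachytene marker, H1fnt, was called higher, at 0.169 and 0.0527 CPM in WT against 0.713 and 0.437 in KO. These levels are very low. By DESeq2 0 pachytene markers were called higher, and likewise 0 of 14 tested after subtraction of the background described below. Of the Sertoli cell markers, 8 of 30 were called higher and 0 lower, with 12 higher and 1 lower at an unadjusted p under 0.05 and 7 and 0 by DESeq2. At that unadjusted p, 19.3% of all genes tested were higher and 24.1% lower, the shares against which such counts are read below. Reads in intergenic regions upstream of untested autosomal genes came to 2.70 and 2.53 per kilobase in WT and 3.01 and 3.39 in KO, although the KO libraries held fewer gene reads. This rate is used below as background.

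Collagen RNA was higher in the Dis3 KO testes than in the controls. Of the 44 genes, 29 were called higher in KO and 2 lower at an adjusted p under 0.05 (edgeR quasi-likelihood test, Benjamini-Hochberg over all genes tested), and 13 were not called. Over all genes tested, 11.6% were called higher and 20.3% lower. The median log2 fold change (KO over WT) was 0.47 for the collagens and 0.05 for all genes tested. Both KO libraries lay above both WT libraries in 39 collagens and below them in 2, with 3 overlapping. The same orders held for 35.6% and 32.7% of all genes tested. The collagens' share of all gene reads was 0.313% and 0.346% in the controls and 0.490% and 0.506% in KO. In whole tissue, more cells of a type and more RNA per cell cannot be told apart.

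Fibrillar collagens showed a median log2 fold change of 0.62, with 9 of 11 called higher and 1 lower. For type IV the median was 0.26, with 6 of 6 called higher. The other collagens had a median of 0.46, with 14 of 27 called higher and 1 lower. Levels below are CPM divided by kilobases of annotated exon (RPKM), which allow genes to be compared with each other. They rest on the merged exons of each gene, so a gene with long alternative exons reads low.

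**Figure D1:**
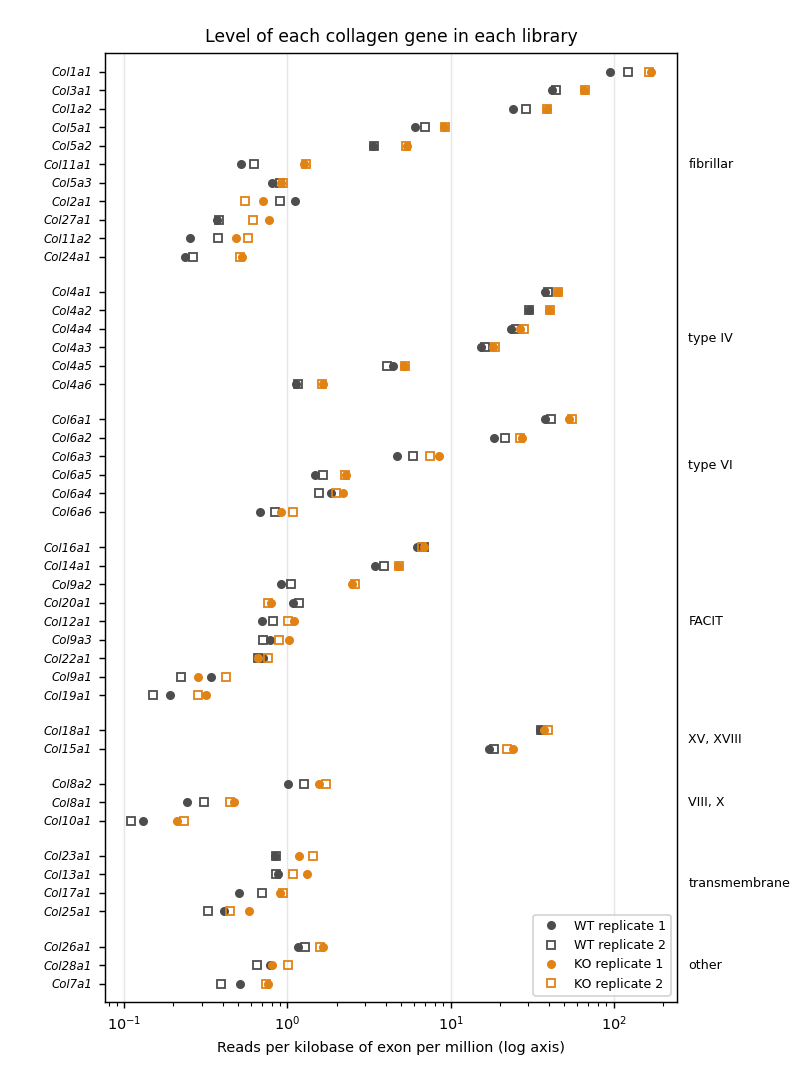
Level of each of the 44 collagen genes in each library, in RPKM on a log axis, grouped by class and ordered by level. Grey marks WT and orange KO, with circles for replicate 1 and open squares for replicate 2. In 39 genes both orange marks lie to the right of both grey marks, and Col2a1 and Col20a1 show the opposite order.

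Col1a1 and Col1a2 encode the chains of type I collagen, the main fibre protein of connective tissue. Col1a1 (ENSMUSG00000001506; chromosome 11, 94936224 to 94953042, plus strand, GRCm38) had the highest level of all collagens. Its level was 95.2 and 123 RPKM in WT replicates 1 and 2 and 169.7 and 164 RPKM in KO replicates 1 and 2. Both KO values were above both WT values, and the WT libraries stood further apart than the KO libraries. The mean was 109 ± 19.7 in WT and 167 ± 4.16 in KO (SD, n = 2 each), and the log2 fold change was 0.61 ± 0.10 (SE; adjusted p = 0.00101). Col1a2 (chromosome 6, 4504814 to 4541544) was read at 24.3 and 28.9 RPKM in WT replicates 1 and 2 and 38.9 and 39.2 RPKM in KO replicates 1 and 2, again without overlap. It rose by a log2 fold change of 0.55 ± 0.07 (adjusted p = 3.45e-06). Col1a1 over Col1a2 was 3.91 and 4.25 in WT and 4.36 and 4.17 in KO, so the ranges of the groups overlapped.

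Col3a1 encodes type III collagen, a fine-fibre collagen of soft tissue and vessel walls, and lies on chromosome 1 at 45311538 to 45349706. It was read at 41.7 and 44.4 RPKM in WT replicates 1 and 2 and 65.7 and 66.4 RPKM in KO replicates 1 and 2. The replicates of each group lay close together and the groups were well apart. Its log2 fold change of 0.62 ± 0.06 gave the smallest adjusted p of all collagens, 5.86e-08. Type III over Col4a1, as a ratio of levels, was 1.10 and 1.12 in WT and 1.45 and 1.45 in KO. Col1a1, Col1a2 and Col3a1 together made up 40.6% and 43.6% of collagen reads in WT and 47.2% and 46.8% in KO.

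Type V and type XI chains form the core on which fibrils start and so limit their width. Col5a1 (chromosome 2, 27886425 to 28039514) was read at 6.02 and 6.99 RPKM in WT against 9.14 and 9.27 in KO, a log2 fold change of 0.50 ± 0.08 (adjusted p = 1.95e-05). Col5a2, the neighbour of Col3a1 on chromosome 1 at 45374321 to 45503282, was read at 3.34 and 3.40 RPKM in WT against 5.44 and 5.34 in KO, a change of 0.68 ± 0.08 (adjusted p = 5.40e-07). A further chain of type V, Col5a3, did not follow: its level was 0.800 and 0.906 RPKM in WT against 0.919 and 0.941 in KO, and its change of 0.12 ± 0.17 was within its error (adjusted p = 0.615). The largest rise of a fibrillar gene was that of Col11a1 (chromosome 3, 114030540 to 114220718), a chain of type XI. It was read at 0.518 and 0.621 RPKM in WT replicates 1 and 2 and 1.26 and 1.30 RPKM in KO replicates 1 and 2. The log2 fold change was 1.16 ± 0.13, a fold of 2.24 (adjusted p = 5.09e-07). Col11a2 rose at a lower level, 0.253 and 0.374 RPKM in WT against 0.482 and 0.576 in KO, by 0.74 ± 0.26 (adjusted p = 0.0299). That call was lost after background subtraction (adjusted p = 0.198, log2 fold change 0.60).

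Col24a1 and Col27a1, the more distant members of the fibrillar family, were read at low levels. Col24a1 was at 0.235 and 0.263 RPKM in WT against 0.526 and 0.510 in KO and Col27a1 at 0.369 and 0.383 RPKM in WT against 0.775 and 0.619 in KO. Their log2 fold changes were 1.05 ± 0.24 (adjusted p = 0.00188) and 0.89 ± 0.17 (adjusted p = 2.67e-04). No library of one group overlapped the other group in either gene. Their reads stood 3.18 and 4.49 times above background.

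Col2a1, the collagen of cartilage (chromosome 15, 97975602 to 98004695, minus strand), went the other way. Its level was 1.11 and 0.899 RPKM in WT replicates 1 and 2 and 0.712 and 0.546 RPKM in KO replicates 1 and 2, resting on 302, 315, 120 and 104 reads. Both KO libraries were below both WT libraries. The log2 fold change was -0.67 ± 0.17 (adjusted p = 0.00394), and -0.99 after background subtraction. In cartilage type IX collagen decorates type II fibrils. Col9a2, a chain of type IX, rose here, and Col2a1 over Col9a2 was 1.22 and 0.851 in WT and 0.287 and 0.210 in KO. The lower ratio follows from the opposite calls of these genes and is no further result. Col9a1 and Col9a3, the other chains of type IX, did not pass. Among markers of chondrocytes and bone, 0 of 9 tested were called higher and 1 was called lower, Comp, at 17.6 and 13.6 CPM in WT against 9.16 and 7.09 in KO (adjusted p = 5.65e-05). At an unadjusted p under 0.05 these counts were 3 and 1, and by DESeq2 0 and 1. As counted, most of the list did not go with Comp: the list's median log2 fold change was 0.37. Both KO libraries lay above both WT libraries in 7 of the 9 and below them in 1, beside 35.6% and 32.7% of all genes tested. Low genes more often showed the first order. Over the 8551 genes tested under 5 times background it held in 5264, and their median was 0.74. After background subtraction the median of the list was 0.09 over 6 tested genes. The whole list summed to 35.9 and 32.3 CPM in WT and 33.1 and 32.2 CPM in KO. The part of such cells in the Col2a1 result was not tested.

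The 250 bases before the start of 3 fibrillar genes called higher are shown as examples, and their windows hold no annotated exon. The windows of Col11a2, Col24a1 and Col27a1, also called higher, hold none either and are not shown. The bases shown were taken from RefSeq sequence on GRCm38.p6 for Col3a1 (chr1:45311288-45311537), Col5a1 (chr2:27886175-27886424) and Col11a1 (chr3:114030290-114030539), all on the plus strand. Capitals mark the letters GGGCGG (the GC box), CCAAT and TATAAA, or their reverse complements.
Col3a1: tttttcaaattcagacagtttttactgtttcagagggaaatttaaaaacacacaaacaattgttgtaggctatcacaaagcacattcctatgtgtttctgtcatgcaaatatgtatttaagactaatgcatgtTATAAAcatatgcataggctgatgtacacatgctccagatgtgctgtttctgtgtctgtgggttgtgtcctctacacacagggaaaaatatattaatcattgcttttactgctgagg
Col5a1: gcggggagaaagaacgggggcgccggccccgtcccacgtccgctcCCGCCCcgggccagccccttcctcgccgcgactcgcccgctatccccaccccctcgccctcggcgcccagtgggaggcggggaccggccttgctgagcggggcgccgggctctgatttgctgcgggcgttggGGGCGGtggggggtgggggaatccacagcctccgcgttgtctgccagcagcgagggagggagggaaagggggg
Col11a1: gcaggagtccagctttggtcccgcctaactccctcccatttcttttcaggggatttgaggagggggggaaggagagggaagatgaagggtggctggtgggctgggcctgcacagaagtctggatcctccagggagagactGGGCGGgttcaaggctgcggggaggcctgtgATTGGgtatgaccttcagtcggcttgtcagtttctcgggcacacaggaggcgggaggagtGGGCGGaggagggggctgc
The Col3a1 window held 1 TATAAA, its first base 117 bases before the start, and had a GC content of 35.2%. The Col5a1 and Col11a1 windows had GC contents of 76.4% and 62.4%, and each held 2 GC box matches. The Col11a1 window held an ATTGG as well. The letters thus differed between these 3 examples.

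**Figure D2:**
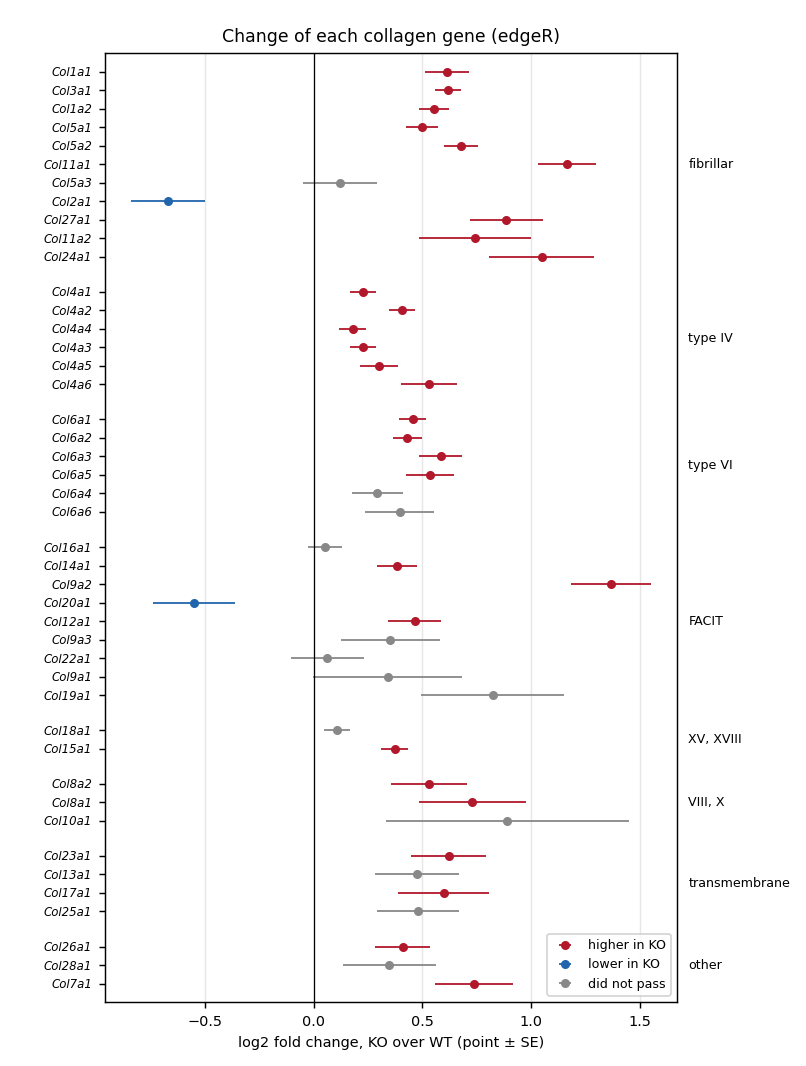
Log2 fold change (KO over WT) of each collagen gene with its SE as a bar, grouped by class as in the plot of levels. Red marks genes called higher, blue genes called lower and grey genes that did not pass an adjusted p of 0.05. The 6 type IV genes lie between 0.18 and 0.53, and the fibrillar genes called higher between 0.50 and 1.16.

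Type IV collagen is built from 6 chains, each encoded next to another one in a head-to-head pair. Col4a1 and Col4a2 give the common network, and the others give networks of restricted tissues. Col4a1 (chromosome 8, 11198423 to 11312826, minus strand) was read at 38.1 and 39.8 RPKM in WT replicates 1 and 2 and 45.5 and 45.7 RPKM in KO replicates 1 and 2. The groups did not overlap, and the gap between them was larger than the gap between replicates. Its log2 fold change was 0.23 ± 0.06 (adjusted p = 0.00455). Col4a2 (chromosome 8, 11312805 to 11449287, plus strand) was read at 30.4 and 30.3 RPKM in WT against 39.9 and 40.5 in KO, a change of 0.41 ± 0.06 (adjusted p = 9.85e-06). Col4a1 over Col4a2 was 1.25 and 1.31 in WT and 1.14 and 1.13 in KO, a difference that was not tested.

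The annotated 5′ ends of Col4a1 and Col4a2 overlap by 22 bases, and these are shown because both genes of the pair start within them. The bases, on the plus strand of GRCm38.p6 at chr8:11312801-11312830, have the shared ones in capitals.
Col4a1 and Col4a2: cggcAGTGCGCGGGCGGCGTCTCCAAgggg
Genes were counted on their own strand, so reads over these bases can be told apart.

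Col4a3 and Col4a4 start 72 bases apart on chromosome 1. These chains are known chiefly from the basement membranes of the kidney filter and other specialised sites. Col4a3 was at 15.4 and 16.4 RPKM in WT against 18.3 and 18.8 in KO and Col4a4 at 23.4 and 25.1 RPKM in WT against 26.9 and 28.1 in KO. Their log2 fold changes were small, 0.23 ± 0.06 (adjusted p = 0.00589) and 0.18 ± 0.06 (adjusted p = 0.0270). Their ratio was 0.655 and 0.653 in WT and 0.682 and 0.669 in KO.

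Col4a5 and Col4a6 start 1309 bases apart on the X chromosome and were the lowest of the type IV genes. Col4a5 was read at 4.42 and 4.09 RPKM in WT against 5.20 and 5.26 in KO, a log2 fold change of 0.30 ± 0.09 (adjusted p = 0.0103). Col4a6 was read at 1.12 and 1.15 RPKM in WT against 1.66 and 1.63 in KO, with the largest type IV change, 0.53 ± 0.13 (adjusted p = 0.00291). In both genes the KO libraries lay close together above the WT libraries. The 250 bases before Col4a6 (chrX:141474077-141474326, minus strand), shown because this gene had the largest change of its class, held 1 GC box match as CCGCCC, in capitals.
Col4a6: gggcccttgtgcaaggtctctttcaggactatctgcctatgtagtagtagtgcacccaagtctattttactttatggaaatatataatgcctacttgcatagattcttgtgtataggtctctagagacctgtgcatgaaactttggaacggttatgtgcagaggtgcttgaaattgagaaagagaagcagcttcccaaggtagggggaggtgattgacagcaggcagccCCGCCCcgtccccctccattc

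All 6 type IV changes were positive under every setting tried, but 2 of the 6 calls held in all 11 settings, those of Col4a2 and Col4a6. With libraries scaled to the summed reads of Sertoli cell markers, the same pair was called higher. That scaling shifted all genes by -0.11 on the log2 scale and left 20 collagens called higher and 2 lower. Over all genes tested it gave 7.82% higher and 27.6% lower. Without WT replicate 1, and likewise without KO replicate 2, 3 of the 6 were called higher.

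Type VI collagen forms beaded filaments around cells, close to basement membranes, from Col6a1 and Col6a2 chains with a longer partner chain. Of its 6 genes, 4 were called higher, and the median log2 fold change was 0.44. Col6a1 was read at 38.0 and 41.4 RPKM in WT against 53.5 and 55.4 in KO, a change of 0.46 ± 0.06 (adjusted p = 4.46e-06). Col6a2, its neighbour on chromosome 10, was read at 18.5 and 21.5 RPKM in WT against 27.4 and 26.5 in KO, a change of 0.43 ± 0.07 (adjusted p = 3.13e-05). Col6a1 over Col6a2 was 2.06 and 1.93 in WT and 1.95 and 2.09 in KO, without separation. The longer chains differed in level: Col6a3 was at 4.70 and 5.92 RPKM in WT against 8.50 and 7.46 in KO and Col6a5 at 1.47 and 1.65 RPKM in WT against 2.28 and 2.24 in KO. Both rose, by 0.58 ± 0.10 (adjusted p = 7.19e-04) and 0.54 ± 0.11 (adjusted p = 5.37e-04). Col6a4 and Col6a6 had log2 fold changes of 0.29 ± 0.12 and 0.40 ± 0.16 and did not pass (adjusted p = 0.0613 and 0.0592), although their groups did not overlap.

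Collagens of types XV and XVIII sit at the outer face of basement membranes and carry anti-angiogenic fragments. Col15a1 was read at 17.3 and 18.4 RPKM in WT against 24.0 and 22.3 in KO and rose by 0.37 ± 0.06 (adjusted p = 8.11e-05). Col18a1, the source of endostatin, stood higher in level at 35.6 and 36.1 RPKM in WT against 37.4 and 39.8 in KO and did not pass, with a log2 fold change of 0.11 ± 0.06 (adjusted p = 0.168). Counted with type IV, they gave 7 of 8 called higher and a median of 0.26.

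The collagens that attach to fibril surfaces (FACIT) did not move as one. Of 9, 3 were called higher and 1 lower, with a median of 0.35. Col9a2 (chromosome 4, 121039385 to 121055322), a chain of type IX, had the largest rise of all 44. It was read at 0.907 and 1.06 RPKM in WT replicates 1 and 2 and 2.48 and 2.60 RPKM in KO replicates 1 and 2, on 83, 124, 140 and 166 reads. Its log2 fold change was 1.37 ± 0.18 (adjusted p = 4.86e-06). The other type IX chains, Col9a1 and Col9a3, had changes of 0.34 ± 0.34 and 0.35 ± 0.23 that did not pass. Col9a1 overlapped between groups, at 0.340 and 0.224 RPKM in WT against 0.281 and 0.422 in KO.

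Col14a1 and Col12a1, which bind type I fibrils, were read at 3.43 and 3.90 RPKM in WT against 4.76 and 4.81 in KO and at 0.700 and 0.814 RPKM in WT against 1.10 and 1.001 in KO. They rose by 0.38 ± 0.09 (adjusted p = 0.00241) and 0.46 ± 0.12 (adjusted p = 0.00593). Col16a1 had the highest level of the FACIT genes and did not separate the groups, at 6.26 and 6.84 RPKM in WT against 6.89 and 6.70 in KO (log2 fold change 0.05 ± 0.08, adjusted p = 0.648). Col20a1 was called lower: its level was 1.08 and 1.18 RPKM in WT against 0.790 and 0.756 in KO, a change of -0.55 ± 0.19 (adjusted p = 0.0273). The call was lost by DESeq2 (adjusted p = 0.123), without WT replicate 2 (0.138) and without KO replicate 2 (0.0697). Col20a1 shares 79 exon bases with another gene on the same strand, where reads were left uncounted. The same holds for 141 bases of Col3a1 and 36 bases of Col7a1. Col22a1 and Col19a1 did not pass, with log2 fold changes of 0.06 ± 0.17 and 0.82 ± 0.33.

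The short-chain network collagens were all at low levels. Col8a2 was read at 1.002 and 1.26 RPKM in WT against 1.55 and 1.73 in KO and Col8a1 at 0.242 and 0.306 RPKM in WT against 0.469 and 0.446 in KO, chains of a network known from the eye and vessel walls. Both were called higher, with adjusted p = 0.0242 and 0.0265, and neither call was kept after background subtraction (0.0665 and 0.225). Their log2 fold changes were 0.53 and 0.73 as counted, and 0.48 and 0.56 after subtraction. Col10a1, a product of growth plate chondrocytes, rested on 12 to 15 reads per library. Its level was 0.130 and 0.110 RPKM in WT against 0.210 and 0.233 in KO, at 1.43 times background, and it did not pass (adjusted p = 0.228).

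Collagens with a membrane anchor gave 2 of 4 called higher. Col23a1 was read at 0.843 and 0.855 RPKM in WT against 1.18 and 1.43 in KO (log2 fold change 0.62 ± 0.17, adjusted p = 0.00809). Col17a1, of epithelial hemidesmosomes, was read at 0.505 and 0.695 RPKM in WT against 0.895 and 0.935 in KO (0.60 ± 0.21, adjusted p = 0.0309). Col13a1, at 0.874 and 0.847 RPKM in WT against 1.32 and 1.08 in KO, and Col25a1 had changes of 0.47 ± 0.19 and 0.48 ± 0.19 and did not pass (adjusted p = 0.0638 and 0.0556). Of the last 3 genes, Col7a1, the anchoring fibril collagen of skin, was read at 0.513 and 0.390 RPKM in WT against 0.757 and 0.736 in KO (0.74 ± 0.18, adjusted p = 0.00288). Col26a1, described from testis and ovary, was read at 1.16 and 1.27 RPKM in WT against 1.65 and 1.59 in KO (0.41 ± 0.13, adjusted p = 0.0175). Col28a1, at 0.786 and 0.651 RPKM in WT against 0.806 and 1.01 in KO, did not pass (adjusted p = 0.216).

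Across the 11 other settings, 16 of the 29 higher calls and 1 of the 2 lower calls, that of Col2a1, held throughout. The 16 were 8 fibrillar genes (all but Col11a2 of those called higher), Col4a2, Col4a6, the 4 type VI genes, Col15a1 and Col9a2. Without WT replicate 1, calls were lost for Col4a1, Col4a3, Col4a4, Col8a1, Col8a2, Col11a2, Col12a1, Col14a1, Col17a1 and Col26a1, with adjusted p from 0.0837 to 0.443, while 9.19% of all genes tested were called higher and 19.5% lower. Leaving out WT replicate 2 lost Col4a4, Col4a5, Col7a1 and Col20a1, with adjusted p from 0.0656 to 0.158 (5.79% of all genes higher). Leaving out KO replicate 1 lost Col8a1, Col12a1, Col17a1 and Col26a1, with adjusted p from 0.0582 to 0.110 (5.3% of all genes higher). Leaving out KO replicate 2 lost Col4a3, Col4a4, Col4a5, Col8a1, Col8a2, Col11a2, Col17a1, Col20a1, Col23a1 and Col26a1, with adjusted p from 0.0697 to 0.342 (4.63% of all genes higher). DESeq2 did not call Col4a4, Col4a5, Col8a1, Col8a2, Col11a2, Col17a1, Col20a1, Col23a1 and Col26a1, with adjusted p from 0.0595 to 0.154, and called 21 collagens higher beside 4.31% of all genes. With no filter on low counts 20 collagens were called higher, beside 3.99% of all genes, and with a filter of 1 CPM in 2 libraries 35, beside 18.1%.

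The calls of Col4a4, Col8a1, Col17a1 and Col26a1 were each lost in 7 of the 11 settings. Background subtraction was among these for Col8a1, Col17a1 and Col26a1, but not for Col4a4. The log2 fold changes of Col17a1 and Col26a1 were then 0.52 and 0.35 (adjusted p = 0.113 and 0.0580).

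Reads of fibrillar genes over those of type IV genes came to 1.57 and 1.79 in WT and 2.16 and 2.09 in KO. Fibrillar collagens summed to 1451 and 1726 CPM in WT and 2418 and 2388 CPM in KO, and type IV collagens to 926 and 964 CPM in WT and 1120 and 1143 CPM in KO. Neither the ratio nor the sums were tested. The controls were not alike in this respect: WT replicate 1 was below WT replicate 2 in 31 of 44 collagens, against 49.5% of all genes tested. Over the fibrillar genes the median log2 ratio of WT replicate 2 to WT replicate 1 was 0.18. In KO, replicate 1 was below replicate 2 in 23 of 44. Without WT replicate 1 the collagens called higher numbered 21, of which 8 were fibrillar.

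Low genes carry a larger share of background, which was higher in KO. Among the 36 collagens with at least 5 times the background, 25 were called higher and 2 lower, with a median of 0.42. Over all 16525 genes at that level 8.44% were called higher and 30.7% lower, with a median of -0.12. The other 8 collagens had a median of 0.78 and 4 called higher. Over all 8551 genes under 5 times background the median was 0.74, and 17.7% were called higher and 0.129% lower. After subtraction of background 24 of 43 tested collagens were called higher and 2 lower, beside 5.98% and 27.3% of all genes. Across the 44 genes, log2 level and log2 fold change had a Pearson r of -0.18 and a Spearman rho of -0.28. After subtraction r was 0.03 and rho -0.03 over 43 genes. These are correlations across genes that share the same 4 libraries.

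**Figure D3:**
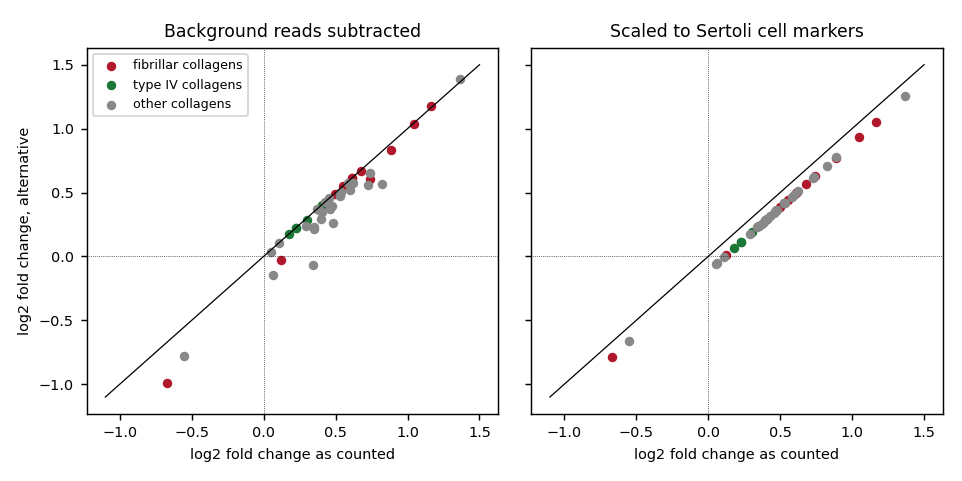
Log2 fold change of each collagen gene as counted (horizontal) against the same after background subtraction (left, 43 genes) and after scaling libraries to Sertoli cell markers (right, 44 genes). The diagonal marks equal values. Subtraction moved chiefly low genes, and Col2a1 fell further, from -0.67 to -0.99. The scaling lowered the points by a near constant 0.11.

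Few reads fell upstream of the collagen genes. The upstream tables held 3000-base regions for 28 of the 44 genes, with no type IV gene among them. On the strand of the gene, 0 of 22 tested regions were called higher and 0 lower by edgeR. At an unadjusted p under 0.05, 4 were higher and 0 lower, and 31.1% of all tested regions were higher. The log2 fold change was positive in 21 of the 22 and in 91.2% of all tested regions, with medians of 0.81 and 0.93. Over all regions tested 0.0544% were called higher and 0.00544% lower. The median collagen region held 10.5 and 11 reads in WT and 11 and 12.5 in KO, near the background of 8.18 and 7.59 in WT and 9.05 and 10.2 in KO. On the opposite strand 1 of 26 tested regions was called higher, beside 11.5% of all regions, and 0 lower, beside 0.113%. That region lies before Col6a5 and held 5, 1, 14 and 15 reads in WT replicates 1 and 2 and KO replicates 1 and 2 (log2 fold change 2.97, adjusted p = 0.0258). The median on this strand was 1.19 beside 1.01 for all regions, and 11 were higher and 0 lower at an unadjusted p under 0.05, beside 38.6% higher of all. Without WT replicate 1 the opposite strand gave 7 collagen regions called higher and the gene strand 3, and without either KO library the opposite strand gave 0. The upstream medians depended on the scaling. Scaled to the upstream reads themselves in place of the gene table's library sizes, the collagen medians were -0.13 on the gene strand and 0.12 on the opposite strand. At these read counts the depth was too low to show most differences.

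Promoter windows of 300 bases, 250 before to 50 after the RefSeq start, were found for 35 of the 44 genes. GGGCGG, on either strand, occurred in 22 of these (62.9%), beside 35.7% of the 32851 windows of all genes. CCAAT occurred in 12 (34.3%), beside 37.4%. TATAAA occurred in 5 (14.3%), beside 13.6%. For each collagen gene only the window nearest its annotated start was used, whereas the share of all genes counts every listed window. The percentages are therefore not on the same unit. Each motif was searched with its reverse complement, no motif holds another, and a match is a description of letters only.

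Genes that act on collagens were taken from 6 lists. Of their 91 tested genes 33 were called higher and 2 lower, with a median log2 fold change of 0.23. These counts and those of each list below are read beside the shares of all genes tested. The shares were 11.6% higher and 20.3% lower, 4.31% and 16.7% by DESeq2, and 7.82% and 27.6% with Sertoli cell scaling. Partner levels are in CPM. In synthesis and folding, 6 of 21 were called higher and 2 lower, and the median of 0.09 was near that of all genes. These counts were 2 and 2 by DESeq2, 2 and 5 with Sertoli cell scaling, and 7 and 2 at an unadjusted p under 0.05. Serpinh1, the collagen chaperone HSP47, was read at 90.8 and 96.9 CPM in WT against 119.7 and 118 in KO (0.34 ± 0.06, adjusted p = 2.12e-04). Creb3l1, a transcription factor that activates collagen genes, was at 48.6 and 45.8 CPM in WT against 65.0 and 65.2 in KO (0.46 ± 0.07, adjusted p = 2.86e-05). P4ha1, a prolyl hydroxylase subunit, was higher as well (0.24 ± 0.07, adjusted p = 0.00849). Tmem38b, a channel of the endoplasmic reticulum, and Mia3, the receptor that loads procollagen for export, fell by 0.43 and 0.24 on the log2 scale (adjusted p = 3.48e-04 and 0.00722).

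Among procollagen processing and crosslinking genes 5 of 15 were called higher and 0 lower (9 and 0 at an unadjusted p under 0.05, 4 and 0 by DESeq2), with a median of 0.28. Loxl2, a lysyl oxidase, was read at 22.0 and 22.8 CPM in WT against 30.9 and 29.7 in KO (0.43 ± 0.09, adjusted p = 8.51e-04). Adamts2 and Adamts14, which cut the amino end of procollagens, had log2 fold changes of 0.33 ± 0.07 (adjusted p = 0.00141) and 0.60 ± 0.15 (adjusted p = 0.00316). Tll1 and Tll2, proteases of the tolloid family, rose at low levels, by 1.33 ± 0.32 and 0.95 ± 0.30 (adjusted p = 0.00265 and 0.0166). The Tll2 call was lost after background subtraction (adjusted p = 0.0651) and by DESeq2 (adjusted p = 0.0932).

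Basement membrane partners of type IV collagen gave 7 of 16 called higher and 0 lower (9 and 0 unadjusted, 7 and 0 by DESeq2), with a median of 0.23. Lamb1, a laminin chain, was read at 114 and 108 CPM in WT against 156 and 143 in KO (0.43 ± 0.06, adjusted p = 1.48e-05). Hspg2, which encodes perlecan, was at 179.5 and 186 CPM in WT against 259 and 221 in KO (0.39 ± 0.07, adjusted p = 1.20e-04). The laminin chains Lamc3, Lama3 and Lama1 had log2 fold changes of 0.35 ± 0.06, 0.56 ± 0.11 and 0.29 ± 0.07.

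Fibril-associated matrix proteins gave 4 of 16 called higher and 0 lower (8 and 0 unadjusted, 4 and 0 by DESeq2), with a median of 0.21. These were Fmod (fibromodulin), at 67.9 and 68.5 CPM in WT against 107 and 91.2 in KO (0.54 ± 0.07, adjusted p = 5.29e-06), Fbn1 (fibrillin), at 59.2 and 57.7 CPM in WT against 90.4 and 77.1 in KO (0.52 ± 0.08, adjusted p = 1.20e-05), Dcn (decorin) and Thbs2 (thrombospondin). The last pair changed by 0.42 ± 0.06 and 0.49 ± 0.12.

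Of 10 collagen receptors 5 were called higher and 0 lower (8 and 0 unadjusted, 4 and 0 by DESeq2), with a median of 0.40. Itga11, the integrin chain for type I collagen on fibroblasts, was read at 5.41 and 5.67 CPM in WT against 10.2 and 11.4 in KO (0.96 ± 0.15, adjusted p = 3.26e-05). Its partner Itgb1 was at 222 and 228 CPM in WT against 258 and 279.7 in KO (0.26 ± 0.06, adjusted p = 0.00236). Ddr2, a receptor kinase for fibrillar collagen, changed by 0.40 ± 0.10 and Itga1 by 0.23 ± 0.08. Lair1, an inhibitory receptor of immune cells, changed by 0.80 ± 0.19.

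Collagen breakdown genes gave 6 of 13 called higher and 0 lower (6 and 0 unadjusted, 3 and 0 by DESeq2), with a median of 0.31. Mmp2 and Mmp14, a gelatinase and its membrane-bound activator, were at 20.1 and 21.8 CPM in WT against 28.7 and 28.5 in KO and 59.9 and 61.6 CPM in WT against 70.1 and 81.1 in KO (adjusted p = 8.67e-04 and 0.00215). The inhibitors Timp2 and Timp3 rose too, by 0.21 ± 0.06 and 0.21 ± 0.06. Fap, a protease of activated fibroblasts, changed by 1.05 ± 0.34 at 1.05 and 0.949 CPM in WT against 2.25 and 1.89 in KO. Its call was lost after background subtraction (adjusted p = 0.206) and by DESeq2 (adjusted p = 0.104). Some genes of the synthesis list and of the breakdown list were thus called higher in the same comparison, the latter including the inhibitors Timp2 and Timp3. By DESeq2 the synthesis list gave 2 higher and 2 lower and the breakdown list 3 and 0, beside 4.31% and 16.7% of all genes.

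Leaving out any 1 library lowered the number of partner calls. Without WT replicate 1, 10 of the 33 higher calls were lost (adjusted p from 0.0568 to 0.368), and among the genes named above these were Itga1, Itgb1, P4ha1, Timp2, Timp3 and Tll2. Without WT replicate 2, 9 of the 33 higher calls were lost (adjusted p from 0.0756 to 0.290), and among the genes named above these were Fap, Itga1, P4ha1, Timp2 and Timp3. Without KO replicate 1, 10 of the 33 higher calls were lost (adjusted p from 0.0851 to 0.312), and among the genes named above these were Adamts2, Ddr2, Fap, Itga1, P4ha1, Timp3 and Tll2. Without KO replicate 2, 10 of the 33 higher calls were lost (adjusted p from 0.0583 to 0.226), and among the genes named above these were Fap, Itga1, Itgb1, Lair1, Mmp14, Timp2 and Tll2, while 4 partner genes in place of 2 were called lower. The call of Itga1 was lost whichever library was left out. By DESeq2, 9 of the 33 higher calls were lost, and among the genes named above these were Fap, Itga1, P4ha1, Timp3 and Tll2. After background subtraction 6 were lost, among them Fap, Itga1 and Tll2.

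**Figure D4:**
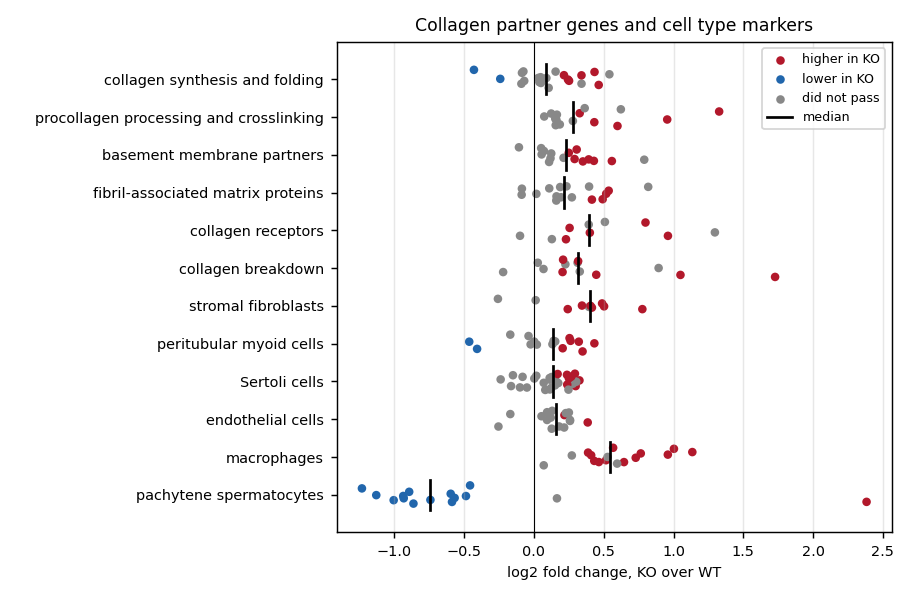
Log2 fold change (KO over WT) of each tested gene in the 6 lists of collagen partners and in 6 lists of cell type markers. Red marks genes called higher, blue genes called lower, grey genes that did not pass, and the black bar is the list's median. Medians run from 0.09 to 0.40 for the partner lists, and that of pachytene spermatocyte markers is -0.74.

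Markers of the somatic cells that make matrix were read beside the collagens, each list summed over all its genes in the table. Stromal fibroblast markers gave 7 of 10 called higher and 0 lower (8 and 0 unadjusted, 7 and 0 by DESeq2), a median of 0.40 and sums of 802 and 799.7 CPM in WT and 1077 and 1027 CPM in KO. Pdgfra, a fibroblast receptor, was at 98.3 and 105 CPM in WT against 136 and 133 in KO (0.41 ± 0.06, adjusted p = 2.40e-05). Dcn and Lum stand in this list and in that of fibril-associated proteins. Peritubular myoid markers, of the contractile cells of the tubule wall, gave 6 of 16 called higher and 2 lower (2 and 2 by DESeq2, 2 and 3 with Sertoli cell scaling), a median of 0.14 and sums of 1927 and 2044 CPM in WT and 2061 and 2114 CPM in KO. Acta2, their smooth muscle actin, was at 475 and 511 CPM in WT against 459.9 and 509.9 in KO and did not pass (adjusted p = 0.805). Sertoli cell markers had a median of 0.14 and sums of 10666 and 10476 CPM in WT and 11591 and 11277 CPM in KO. The fibrillar genes called higher had log2 fold changes of 0.50 to 1.16, the type IV genes 0.18 to 0.53.

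Macrophage markers gave 12 of 16 called higher and 0 lower (13 and 0 unadjusted, 10 and 0 by DESeq2), a median of 0.55 and sums of 228 and 229 CPM in WT and 361 and 357 CPM in KO. Endothelial markers, at a share near the 11.6% of all genes, gave 2 of 16 called higher and 0 lower (3 and 1 unadjusted, 1 and 0 by DESeq2), a median of 0.16 and sums of 236 and 238 CPM in WT and 266 and 271 CPM in KO. Leydig cell markers gave 4 of 13 called higher and 5 lower, with a median of -0.14 and sums of 777 and 799 CPM in WT and 772 and 802 CPM in KO. Adipose markers gave 3 of 6 called higher and 0 lower (3 and 0 unadjusted and by DESeq2), with sums of 24.3 and 27.0 CPM in WT and 39.3 and 52.6 CPM in KO. Epididymis markers gave 2 of 3 called higher and 0 lower (2 and 0 unadjusted, 0 and 0 by DESeq2), with sums of 1.25 and 2.03 CPM in WT and 3.07 and 2.19 CPM in KO. Pachytene spermatocyte markers summed to 4851 and 5006 CPM in WT and 3280 and 3016 CPM in KO, those of early meiotic prophase to 4683 and 4827 CPM in WT and 3438 and 3421 CPM in KO and those of spermatogonia to 2276 and 2332 CPM in WT and 1722 and 1735 CPM in KO. None of the listed markers in the gene table was at 0 in all libraries. The part of these cell types, and of the lower share of germ cell RNA, in the collagen results was not tested.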

How the data were processed

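The values used were raw read counts per gene, made by the authors with featureCounts 1.6.4 on exons of GENCODE M18 and the strand of the gene, per the file headers. Further deposited counts covered 3000-base regions upstream of genes on either strand. Trimming and alignment tools in the submitters' processing notes were cutadapt and HISAT2, with the build GRCm38.p5. The recorded commands hold no option to count reads that map to several places or genes.

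All genes were fitted by the robust quasi-likelihood method of edgeR 4.0.16 (R 4.3.3) after filterByExpr and TMM, with genotype as the only term and a threshold of 0.05 after Benjamini-Hochberg adjustment. Upstream regions used the library sizes and TMM factors of the gene table. The SE is the log2 fold change divided by the square root of F. Background was the trimmed mean of reads in upstream regions of 14248 untested autosomal genes (fraction 0.25 dropped at each end). DESeq2 was 1.42.0. Groups and numbers came from the sample titles. The members, classes and lists were chosen with earlier results of these data known. Values per library were given, by rule, for called collagens whose mean log2 CPM reached 0, all type IV genes and the 3 highest of each remaining class, and up to 5 called genes per partner list were named by adjusted p. Per-library levels of Col5a3 and Col9a1, and H1fnt, Comp, Acta2 and Pdgfra, were chosen after their values were seen, as was the count of members with at least 5 times background. Alternatives were RLE scaling, scaling to Sertoli markers, the replicate number as a block, each library left out, 1 CPM in 2 libraries as the filter or none at all, DESeq2 and background subtraction. Replicates of a group differed by more than sampling noise (chi-square per degree of freedom 5.02 in WT and 5.72 in KO).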

Additional observations from a re-analysis of the deposited data

How the results depend on the processing

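Across 11 other settings 20 to 35 collagens were called higher, and 1 or 2 lower (1 by DESeq2, 1 to 2 with a library left out). Type IV genes called higher numbered 2 with scaling to Sertoli cell markers and 2 with no filter on low counts, and 3 to 6 with a library left out. Other collagens called higher numbered 9 by DESeq2, and other collagens called lower 0 by DESeq2 and 0 to 1 with a library left out. Partner genes called higher numbered 52 with a filter of 1 CPM in 2 libraries, and those called lower 7 with scaling to Sertoli cell markers and 2 to 4 with a library left out. Upstream regions on the gene strand called higher numbered 0 to 3 with a library left out, and on the opposite strand 0 to 7, and 0 on the table's own library scale. With the replicate number as a block, upstream regions called higher numbered 2 on the gene strand and 5 on the opposite strand. The share over all upstream regions was not computed with a block or with a library left out. Those region counts are therefore no result about collagens. With the block, 32 collagens were called higher and 2 lower, beside 13.4% and 21.8% of all genes. The replicate numbers share only a number: deviations of libraries with the same number had a correlation of 0.058. Of all genes, 2906 were called higher in the fit reported, 1081 by DESeq2, 1937 with no filter, 1189 after background subtraction, 1537 without WT replicate 2, 1521 if KO replicate 1 was dropped and 1324 if KO replicate 2 was. Direction reversed for some collagens that did not pass in the fit reported. The log2 fold change of Col16a1 was -0.062 with Sertoli scaling, -0.020 with no filter and -0.049 to 0.10 with a library left out. That of Col22a1 was -0.049, -0.0064 and -0.14 with Sertoli scaling, no filter and background subtraction, and -0.10 to 0.13 with a library left out. Col9a1 had -0.070 after background subtraction and -0.043 to 0.62 with a library left out, and Col5a3 -0.027 and -0.0010 to 0.20 with a library left out. Col18a1 had -0.0046 with Sertoli scaling. The causes were not tested. The KO libraries held fewer reads, so low genes there are measured less precisely.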
